A study of Arabidopsis thaliana with 44 samples.

Results

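The genes described here had almost no read in wild-type (WT) Arabidopsis shoots and were read in every library of at least 1 of 3 chromatin mutants. A gene counted as silent in WT when its reads summed to at most 3 over the 3 WT RNA-seq libraries. It counted as on in a mutant when each of the 3 libraries of that mutant held at least 5 reads. Of 33341 genes counted, 10915 were silent in WT, and 219 of these were on in a mutant. Because the genes were chosen by these counts, their transcript levels are given as a description, with no test against WT.

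Shoots were taken 3 weeks after sowing in soil under 16 h of light, from pkl-1, clf-28 and pie1-5 plants and from WT. The labels give no background accession, plant numbers or collection time, and each mutant is represented by 1 allele. RNA-seq has 3 libraries for each of the 4 genotypes, with 21.6 to 33.1 M reads over genes. Chromatin immunoprecipitation (ChIP) of the histone mark H3K27me3 and of the histone variant H2A.Z has 2 libraries per mutant, and regions called from them are set against 1 WT library for H3K27me3 and 2 for H2A.Z. The design text calls the replicates independent biological ones and gives no more on their source.

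PKL is a chromatin remodeler of the CHD3 type, CLF is a Polycomb methyltransferase that places H3K27me3, and PIE1 is the ATPase of the SWR1 complex, which puts H2A.Z into nucleosomes. H3K27me3 marks genes held silent in a tissue, and many floral, seed and root regulators carry it in leaves. H2A.Z lies at the start of many transcribed genes and over the body of many genes that are expressed in few conditions.

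The mutated genes were read first. PKL itself measured 29.0, 29.3 and 35.2 CPM, that is reads scaled to the size of the library with edgeR's TMM factor, in pkl-1, against 17.7, 15.2 and 17.7 CPM in WT. CLF measured 23.6, 22.8 and 34.1 CPM in clf-28, against 3.04, 5.99 and 2.72 CPM in WT. PIE1 measured 3.73, 3.95 and 5.69 CPM in pie1-5, against 8.10, 6.85 and 10.1 CPM in WT. PKL transcripts were thus higher in pkl-1 and CLF transcripts higher in clf-28 than in WT, and these counts cannot serve as a check of either label. The shoot markers RBCS1A, CAB1 and CAB3 together gave 8575 to 10987 CPM in the mutant libraries and 9432 to 10099 CPM in WT. The library pkl-1 2 stood apart, with reads on 25807 genes against 21380 to 22847 in the other 11, and with reads on 4236 genes that were silent in WT against 391 to 1642. At least 5 reads fell on 150 of the 219 genes in pkl-1 2, against 95 in pkl-1 1 and 97 in pkl-1 3. The requirement of 5 reads in all 3 libraries means that pkl-1 2 alone could switch no gene to on. Its scattered reads did make its own part of the rule easier to meet. Without pkl-1 2, 79 genes were on in pkl-1, against 62 with it. The total of 219 rose to 231 without pkl-1 2, against 324 without pkl-1 1 and 300 without pkl-1 3. So pkl-1 2 held back fewer genes than pkl-1 1 or pkl-1 3.

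The mutant with the most switched-on genes was pie1-5, with 135 of the 219. There were 62 in pkl-1, where pkl-1 2 held back few genes, and 58 in clf-28. Of the 219 genes 188 were on in exactly 1 mutant (109 in pie1-5, 41 in pkl-1, 38 in clf-28), 26 in 2 mutants and 5 in all 3. Among the 26, pkl-1 and pie1-5 shared 11, clf-28 and pie1-5 shared 10, and pkl-1 and clf-28 shared 5. The 3 comparisons share the WT libraries.

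**Figure D1:**
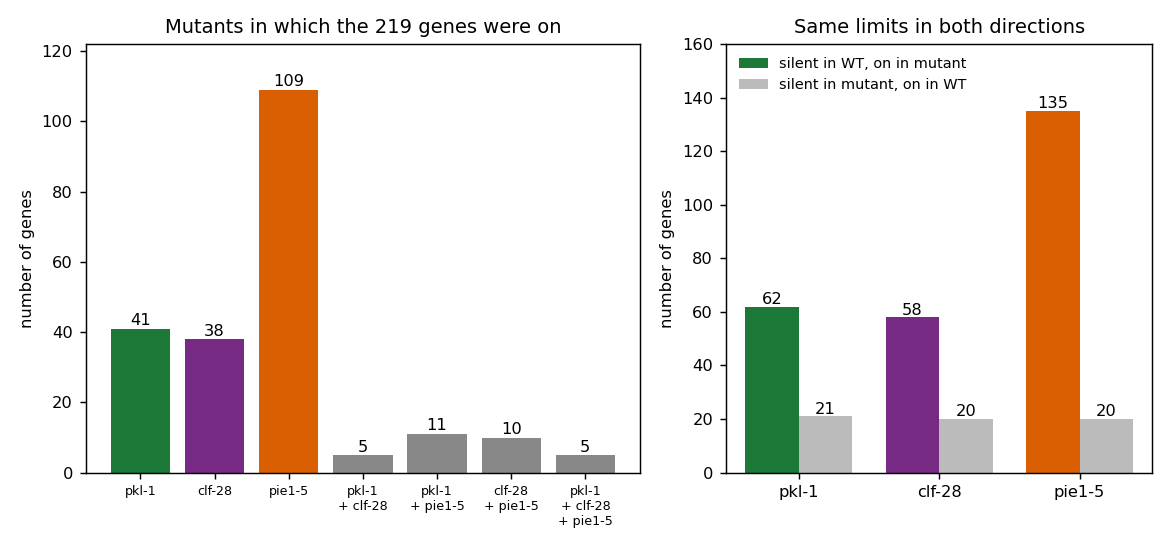
Numbers of genes. The left panel splits the 219 genes by the mutants in which each library held at least 5 reads. The right panel sets the genes silent in WT and on in a mutant (62, 58 and 135) beside the genes silent in that mutant and on in WT (21, 20 and 20, grey).

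With the same limits turned round, 21 genes were silent in pkl-1 and on in WT, 20 were silent in clf-28 and on in WT, and 20 were silent in pie1-5 and on in WT. No gene was silent in all 3 mutants and on in WT. The same limits between mutants also gave long lists. There were 95 genes silent in pkl-1 and on in pie1-5, and 94 silent in clf-28 and on in pie1-5, against 45 silent in pie1-5 and on in pkl-1 and 38 silent in pie1-5 and on in clf-28. Thus pie1-5 had the longest list of switched-on genes against each of the other genotypes. Between pkl-1 and clf-28 the numbers were nearly even, with 30 genes on in pkl-1 and silent in clf-28 and 31 the other way. The 5 reads needed in each library came to at most 0.170 CPM in pie1-5, 0.221 CPM in pkl-1 and 0.248 CPM in clf-28. The limit was thus lowest for pie1-5, and numbers from counts scaled to the smallest library are given below.

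On in 1 mutant rarely meant silent in the others. Of the 188 genes on in 1 mutant, 17 had at most 3 reads in each of the other mutants, 4 of them on in pkl-1, 3 on in clf-28 and 10 on in pie1-5. In pkl-1 these were AT1G20795, with 13, 22 and 56 reads, the long non-coding RNA gene AT1G08757, with 16, 20 and 11 reads, AT1G01150 and AT3G06505. None of the first 3 had a read in clf-28, pie1-5 or WT. In clf-28 they were AT5G60140, with 30, 12 and 45 reads and none in the other 9 libraries, the carboxypeptidase-like gene SCPL43, with 18, 15 and 16 reads and 1 elsewhere, and AT1G51538. In pie1-5 they included AT1G74140, with 6, 38 and 15 reads, AT5G54700, with 9, 7 and 12 reads, and AT3G20710, with 5, 5 and 19 reads, all without a read in the other 9 libraries. The iron-deficiency transcription factor gene BHLH100 had 8, 14 and 7 reads in pie1-5, none in pkl-1, 0, 1 and 1 in clf-28 and none in WT. The calmodulin-like gene CML43 had 8, 16 and 7 reads in pie1-5, none in pkl-1 or clf-28, and 0, 0 and 2 in WT.

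The other genes had scattered reads outside their own mutant. Among the 109 genes on in pie1-5 alone, 58 reached 5 reads in pkl-1 2, against 20 in pkl-1 1 and 25 in pkl-1 3, and 18 to 32 did so in a clf-28 library. The median over these 109 genes was 0.364 CPM in pie1-5, 0.126 CPM in pkl-1 and 0.0712 CPM in clf-28. For the 41 genes on in pkl-1 alone the medians were 0.541 CPM in pkl-1, 0.104 CPM in clf-28 and 0.0652 CPM in pie1-5. For the 38 genes on in clf-28 alone they were 0.485 CPM in clf-28, 0.125 CPM in pkl-1 and 0.103 CPM in pie1-5. A set of genes chosen for 1 mutant is high there by the choice.

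**Figure D2:**
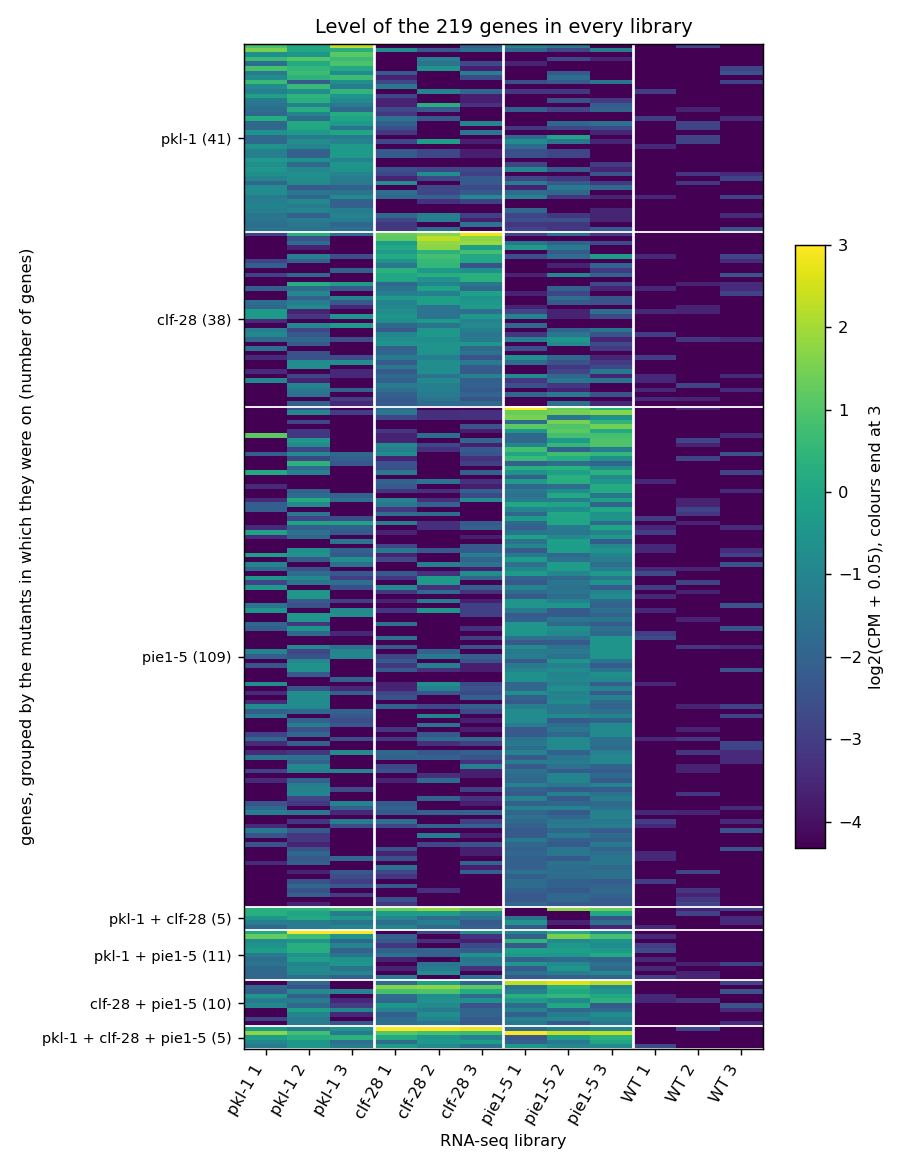
Level of each of the 219 genes (rows, grouped by the mutants in which they were on) in the 12 RNA-seq libraries (columns), as log2(CPM + 0.05). WT columns are dark throughout because the genes were chosen for it, and pkl-1 2 holds more scattered reads over the genes of the other mutants than pkl-1 1 and pkl-1 3 do.

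Most of the 219 genes were read at a low level where they were on. The median of the mean CPM was 0.553 in pkl-1, 0.478 in clf-28 and 0.381 in pie1-5. Only 12, 13 and 14 genes reached a mean of 1 CPM in pkl-1, clf-28 and pie1-5. The 5 genes with the highest mean CPM held 45.7% of the reads of the switched-on genes in pkl-1, 41.0% in clf-28 and 25.2% in pie1-5. At these library sizes 5 reads correspond to 0.133 to 0.248 CPM. Just inside the limits lay AT1G50400, with 6, 5 and 5 reads in pie1-5, and the abscisic acid receptor gene PYL11, with 5, 7 and 5 reads in pie1-5 and 2 in WT. Just outside them lay 105 genes, each with a WT total of 4 or with 4 as the smallest count of a mutant. These include the zinc finger gene ZFP2, with 151, 74 and 133 reads in clf-28 and 1, 0 and 3 in WT, and AGL19, a MADS-box gene that promotes flowering, with 67, 60 and 46 reads in clf-28 and 0, 1 and 3 in WT. The limits therefore leave out genes with larger counts than most of those they keep.

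In clf-28 the switched-on genes included regulators of the fruit. SHP1, a MADS-box gene of carpels and of the valve margin, where the fruit opens, had 31, 24 and 45 reads in clf-28, 2, 7 and 0 in pkl-1, 1, 15 and 6 in pie1-5, and 0, 0 and 3 in WT. IND, a bHLH gene of the same valve margin, had 39, 15 and 22 reads in clf-28, 0, 0 and 5 in pkl-1, 0, 0 and 2 in pie1-5, and none in WT. Each clf-28 library exceeded every library of the other genotypes for both genes. The ovule integument gene ATS had 6, 11 and 8 reads in clf-28 and 6, 12 and 16 in pie1-5, against none in WT. TCP12, a transcription factor gene that restrains branching, had 22, 17 and 23 reads in clf-28, against 0, 6 and 12 in pkl-1, 0, 8 and 4 in pie1-5, and none in WT. HB21, a homeodomain-leucine zipper gene, had 94, 65 and 82 reads in clf-28, 10, 38 and 14 in pie1-5, 5, 4 and 0 in pkl-1, and none in WT. SHP1 and TCP12 are among 49 of the 219 genes (22.4%) that overlap another counted gene, against 31.1% of nuclear counted genes. Of the 49, 37 overlap a gene with more reads. The library kit keeps no strand information, so the reads of an overlapping pair cannot be assigned to one of them.

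LLG2, of a GPI-anchored protein, had 55, 37 and 41 reads in clf-28, 13, 31 and 20 in pie1-5, 4, 17 and 11 in pkl-1, and 0, 0 and 3 in WT. AT1G49640 had 32, 64 and 30 reads in clf-28, 24, 11 and 0 in pie1-5, 0, 1 and 0 in pkl-1, and none in WT. The seed-coat protease gene DELTA-VPE had 12, 8 and 32 reads in clf-28 but also 0, 15 and 0 in pkl-1, and 0, 0 and 2 in WT.

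Genes of enzymes and of transport were also on in clf-28, among them AOP3, AO4, ACS7, CYP709B1 and FRD3. AOP3, an enzyme gene of glucosinolate side chains, had 67, 95 and 119 reads in clf-28, 0, 4 and 0 in pkl-1, and none in pie1-5 or WT. Its reads pooled over the 3 clf-28 libraries were 86.6-fold higher than a floor of 3 reads over the WT group. Without WT 2 they were 52.3-fold higher than the same floor of 3 reads. With no WT read, this drop comes from library size alone. The aldehyde oxidase gene AO4 had 75, 63 and 263 reads in clf-28, 2, 38 and 7 in pkl-1, 3, 9 and 2 in pie1-5, and none in WT. ACS7, an enzyme gene of ethylene synthesis, had 24, 71 and 142 reads in clf-28, 0, 8 and 0 in pkl-1, 10, 6 and 3 in pie1-5, and none in WT. The cytochrome P450 gene CYP709B1 had 22, 26 and 64 reads in clf-28 and none in pkl-1 or WT. The clf-28 3 library was the highest for AO4, ACS7 and CYP709B1. FRD3, a citrate transporter gene of iron transport, had 20, 6 and 26 reads in clf-28, but also 17, 2 and 16 in pkl-1. AT4G13577 had the most reads in clf-28, with 317, 152 and 259, against 17, 12 and 16 in pkl-1, 8, 13 and 14 in pie1-5, and 0, 3 and 0 in WT. Without WT 2, which held all 3 WT reads, its clf-28 reads were 136-fold higher than the floor of 3 reads. Its ratio of clf-28 to WT, from pooled reads of all libraries, was 224 (95% counting interval 76.5 to 1090). The interval leaves out the spread between libraries. It is no test, since these counts chose the gene.

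In pkl-1 the highest counts belonged to genes without a name. AT3G01345 had 24, 973 and 779 reads in pkl-1, 0, 2 and 21 in clf-28, 15, 34 and 13 in pie1-5, and none in WT. The spread within pkl-1 was wide, with pkl-1 1 near the level of the pie1-5 libraries. Its reads pooled over the 3 pkl-1 libraries were 600.1-fold higher than the floor. Without WT 2 this was 363-fold, a drop set by library size alone. Most of its pkl-1 reads were in pkl-1 2 and pkl-1 3. Among genes with known roles, AGL38, also called PHE2, a MADS-box gene read in the endosperm, had 63, 31 and 30 reads in pkl-1, 17, 3 and 10 in clf-28, 7, 3 and 11 in pie1-5, and none in WT. Its reads pooled over the 3 pkl-1 libraries were 41.9-fold higher than the floor. Without WT 2 this was 25.3-fold, again a drop set by library size alone. PHE1 is a close copy of AGL38, so the counting could have split their reads. The root peptide hormone gene RGF7 had 5, 33 and 19 reads in pkl-1, 6, 0 and 17 in clf-28, 0, 7 and 8 in pie1-5, and 0, 3 and 0 in WT. The alternative oxidase gene AOX1C had 25, 8 and 24 reads in pkl-1, 9, 3 and 0 in clf-28, none in pie1-5, and 2, 0 and 1 in WT. STS, an enzyme gene of stachyose synthesis, had 5, 32 and 8 reads in pkl-1, and the laccase gene LAC16 had 7, 13 and 9. HEMA3, an enzyme gene of tetrapyrrole synthesis, had 10, 18 and 10 reads in pkl-1 and 0, 0 and 2 in WT.

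AT5G50610 and AT5G50710 were both on in pkl-1 and had the same counts in all 12 libraries, 9, 6 and 19 in pkl-1 and none in WT. The pair is 1 measurement that counts as 2 genes throughout.

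AT4G29200 had 41, 30 and 125 reads in pkl-1, 0, 0 and 7 in clf-28, 13, 10 and 0 in pie1-5, and 0, 3 and 0 in WT. AT2G16340 had 34, 62 and 40 reads in pkl-1, 0, 8 and 0 in clf-28, 0, 3 and 1 in pie1-5, and none in WT. AT5G05640 had 40, 44 and 28 reads in pkl-1, 0, 13 and 1 in clf-28, none in pie1-5, and 0, 0 and 2 in WT. In these 3 genes each pkl-1 library exceeded every library of the other genotypes. AT4G04015, a long non-coding RNA gene, had 12, 41 and 41 reads in pkl-1 and AT4G04423 had 6, 34 and 49, against none of either in WT. AT1G12805 was on in pkl-1, with 53, 52 and 17 reads, and in pie1-5, with 6, 88 and 50, against 6, 0 and 2 in clf-28 and 1, 0 and 0 in WT.

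In pie1-5 the highest count of a named gene belonged to NIMIN1, whose protein binds the salicylic acid regulator NPR1. It had 158, 190 and 137 reads in pie1-5, 0, 7 and 0 in pkl-1, 8, 16 and 8 in clf-28, and 0, 0 and 2 in WT. Its ratio of pie1-5 to WT, from pooled reads, was 214 (95% counting interval 58.8 to 1768). This interval, too, leaves out the spread between libraries and is no test. Without WT 3, which held every WT read, its pie1-5 reads were 103-fold higher than the floor of 3 reads. Genes without a name also reached high counts. AT4G38213 had 300, 75 and 33 reads in pie1-5, 0, 4 and 0 in pkl-1, 8, 0 and 0 in clf-28, and 0, 1 and 0 in WT. AT5G09570 had 81, 87 and 93 reads in pie1-5, 0, 15 and 2 in pkl-1, 10, 1 and 2 in clf-28, and none in WT. AT1G64795 had 70, 60 and 80 reads in pie1-5, 0, 0 and 5 in clf-28, and none in pkl-1 or WT, and it overlaps AT1G64790, which held more reads. AT1G23110 had 92, 10 and 18 reads in pie1-5, 3, 1 and 2 in clf-28, and none in pkl-1 or WT. For AT4G38213 and AT1G23110 most of the reads were in pie1-5 1.

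Transporter genes on in pie1-5 included INT2, of inositol, with 32, 50 and 41 reads in pie1-5 against 0, 0 and 3 in WT, NRT2.5, of nitrate, with 15, 25 and 14 against 1, 0 and 0, and TMT3, of sugars at the vacuole, with 6, 8 and 8 against none. The wax enzyme gene CYP96A15 had 8, 87 and 40 reads in pie1-5, 0, 3 and 0 in pkl-1, and none in clf-28 or WT. NDB4, of an alternative mitochondrial NADH dehydrogenase, had 22, 68 and 32 reads in pie1-5 and none in WT. Beside BHLH100, HB21, ATS and WOX5, transcription factor genes on in pie1-5 included TGA10, of the bZIP family, with 9, 33 and 9 reads, and NAC085, with 5, 7 and 15. ULT2, a relative of the trithorax factor ULT1, had 6, 9 and 9. TGA10, NAC085 and ULT2 had no read in WT, and each had reads in 1 or more libraries of pkl-1 and clf-28. Some genes of hormone pathways were read at a low level. The abscisic acid synthesis gene NCED9 had 5, 13 and 8 reads in pie1-5, against 0, 2 and 0 in WT. The gibberellin methyltransferase gene GAMT2 had 7, 13 and 5 reads in pie1-5, against 1, 0 and 0 in WT. The Aux/IAA gene IAA32 had 5, 10 and 18 reads in pie1-5, against 0, 3 and 0 in WT. Each of the 3 also had 10 or more reads in 1 library of pkl-1. Genes known from seeds included SESA1, a 2S albumin storage protein, with 14, 17 and 29 reads in pie1-5 against 0, 3 and 0 in WT. Of the 21 embryo and seed genes listed below, SESA1 was the 1 switched on. In pie1-5 SESA2 had 0, 0 and 7 reads, SESA3 4, 0 and 0, and SESA4 and SESA5 none. HSD6, of seed oil bodies, had 54, 6 and 11 reads in pie1-5 against none in WT. BZO1, of seed glucosinolates, had 9, 16 and 8 against 1, 2 and 0. The root stem cell gene WOX5 had 7, 5 and 12 reads in pie1-5, 9, 10 and 1 in pkl-1, 5, 4 and 8 in clf-28, and 1, 1 and 0 in WT, so it was close to the limit in all 3 mutants.

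**Figure D3:**
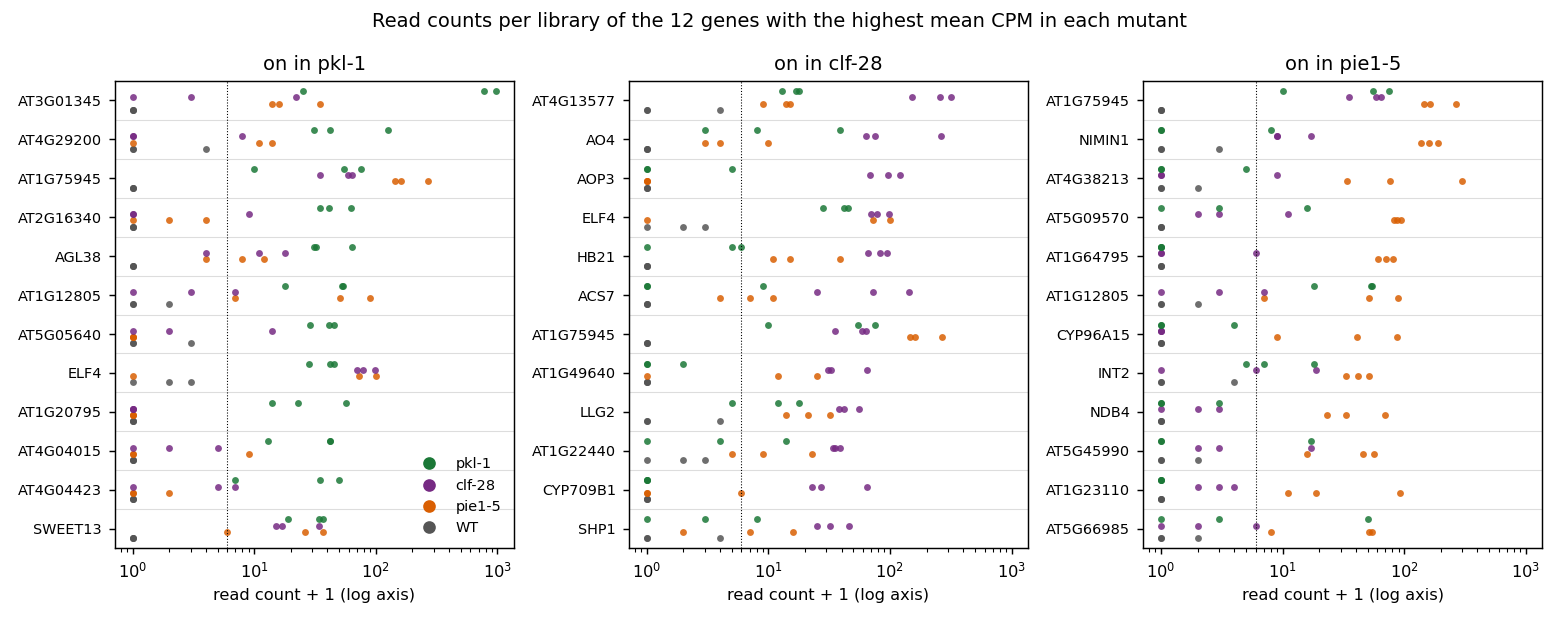
Reads per library, as count + 1 on a log axis, of the 12 genes with the highest mean CPM in each mutant. Each row is 1 gene and each point 1 library of pkl-1, clf-28, pie1-5 or WT, and the dotted line marks 5 reads. Every WT point lies at 3 reads or fewer, and ELF4 has 0 reads in pie1-5 1 but 99 and 72 in the other pie1-5 libraries.

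The 5 genes on in all 3 mutants were AT1G75945, AT4G13577, AT5G58610, SWEET13 and CEP1. AT1G75945 had 74, 54 and 9 reads in pkl-1, 63, 34 and 58 in clf-28, and 268, 161 and 144 in pie1-5, against none in WT. SWEET13, a sucrose transporter gene, had 18, 36 and 33 reads in pkl-1, 33, 14 and 16 in clf-28, and 5, 25 and 36 in pie1-5, against none in WT. CEP1, a cysteine protease gene of the tapetum of anthers, had 11, 22 and 7 reads in pkl-1, 8, 14 and 30 in clf-28, and 6, 11 and 28 in pie1-5, against none in WT. For CEP1 the levels overlapped between the mutants. The clock gene ELF4, which peaks in the evening, was on in pkl-1, with 27, 41 and 44 reads, and in clf-28, with 77, 69 and 98. It had 0, 99 and 72 reads in pie1-5 and 0, 1 and 2 in WT, and a single library kept it from being on in all 3 mutants. AGO9, an Argonaute gene of ovules, was on in pkl-1 (8, 19 and 8 reads) and pie1-5 (24, 22 and 31), had 9, 4 and 23 reads in clf-28 and none in WT.

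Each marker list of other organs held at most 1 of these genes, and the lists are short. Over all genes, 219 of the 10915 silent in WT were on in a mutant. Of 17 floral identity genes 2 were silent in WT, and SHP1 was the 1 on in a mutant. Of 15 endosperm and imprinted genes 11 were silent in WT, and AGL38 was the 1 switched on. Of 21 embryo and seed genes 15 were silent in WT, and SESA1 was the 1 switched on. Of 11 root genes 6 were silent in WT, and WOX5 was the 1 switched on. None of 13 anther and pollen genes, 10 of them silent in WT, of 8 meristem genes or of 4 genes silenced by DNA methylation was on in a mutant. The summed level of the floral list was 75.4 to 95.2 CPM in clf-28, 9.57 to 17.3 CPM in pkl-1 and 19.3 to 35.0 CPM in pie1-5, against 19.7 to 27.1 CPM in WT. AG and SEP3 held most of its reads in clf-28, with 763, 576 and 1001 reads of AG and 780, 688 and 740 of SEP3 there, against 18, 13 and 3, and 7, 12 and 9 in WT. That of the endosperm list was 37.5 to 45.4 CPM in pkl-1, 0.994 to 1.81 CPM in clf-28 and 1.49 to 1.75 CPM in pie1-5, against 0.337 to 1.23 CPM in WT. PHE1 carried nearly all of it in pkl-1, with 963, 1178 and 947 reads there against 6, 13 and 0 in WT, and FIS2, AGL90 and AGL40 had no read in any library. That of the root list was 57.0 to 71.3 CPM in pie1-5, 51.3 to 57.7 CPM in pkl-1 and 32.8 to 43.3 CPM in clf-28, against 22.7 to 36.3 CPM in WT. PYK10 carried nearly all of it in each genotype, with 1802, 2192 and 2030 reads in pie1-5 against 597, 1148 and 553 in WT, while EXPA7 had no read in any library and RHD6, PLT1 and PLT2 had none in pie1-5. That of the seed list was 3.20 to 5.82 CPM in pie1-5, 1.56 to 5.33 CPM in pkl-1 and 0.547 to 1.23 CPM in clf-28, against 0.741 to 2.20 CPM in WT, with SESA4 at no read throughout. That of the anther and pollen list was 0.436 to 10.4 CPM in pie1-5, 0.458 to 2.35 CPM in pkl-1 and 0.711 to 0.994 CPM in clf-28, against 0.615 to 1.36 CPM in WT. Its high value in pie1-5 was that of pie1-5 2, where A9 had 83 reads and LAP5 60. In pkl-1 the high values of this list and of the seed list were those of pkl-1 2, the library that stood apart. There LAP6 had 38 reads, AGL15 31 and EM1 21. That of the meristem list was 15.4 to 19.8 CPM in pie1-5, 6.72 to 8.25 CPM in pkl-1 and 9.74 to 13.5 CPM in clf-28, against 7.86 to 9.69 CPM in WT, and KNAT1 had the most of these reads. That of the genes silenced by DNA methylation was 25.7 to 52.7 CPM in pkl-1, 2.62 to 5.37 CPM in clf-28 and 2.90 to 6.16 CPM in pie1-5, against 5.19 to 21.8 CPM in WT, and QQS had most of the reads in pkl-1. Whether more cells of an organ or more RNA per cell gave such reads cannot be told apart in these bulk samples, and the part of other organs in the switched-on genes was not tested.

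A test across all genes saw only some of the switched-on genes, since 120 of the 219 passed the filter on low counts. edgeR's quasi-likelihood test called 295 of 20375 genes higher in pkl-1 (1.45%), 187 higher in clf-28 (0.918%) and 775 higher in pie1-5 (3.8%), at a Benjamini-Hochberg adjusted p below 0.05. These counts and their order depend on the fit, since fits of the 2 groups alone called 646 in pkl-1, 437 in clf-28 and 312 in pie1-5. Without 1 library they were 129 (without WT 3) to 194 (WT 2) in pkl-1, 69 (WT 3) to 107 (WT 1) in clf-28 and 372 (WT 3) to 1034 (pie1-5 1) in pie1-5. Of the genes on in pkl-1, 40 were tested and 20 called higher. Of those on in clf-28, 43 were tested and 15 called, and of those on in pie1-5, 70 were tested and 32 called. Nothing is read from these counts because the same counts chose the genes. The authors' deposited table of 18489 genes holds 34 of the 219, and 12, 15 and 20 of the genes that were on in pkl-1, clf-28 and pie1-5. It rests on the same counts, so its fold changes for these genes are not given.

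The 219 genes were spread over the 5 chromosomes, with 57, 44, 39, 34 and 44 on chromosomes 1 to 5 and ATMG00600 without a place in the RefSeq table. RefSeq lists 196 as protein-coding, 11 as long non-coding RNA and 3 as snoRNA genes. Their median gene span was 1683 bp, against 636 bp for the other genes silent in WT and 1815 bp for all nuclear genes, and a longer gene collects more reads at the same level. Per kb of gene span, the median level was 0.426 CPM in pkl-1, 0.336 CPM in clf-28 and 0.253 CPM in pie1-5. Among the placed genes 4 pairs lay next to each other, a number that was not set against other genes. In 1 of them, AT2G48080 and AT2G48090, both genes were on in the same mutant alone, pie1-5. HB21 and its neighbour AT2G18540 were both on in pie1-5 but HB21 also in clf-28 and AT2G18540 also in pkl-1.

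The chromatin of these genes was measured independently of the rule. A gene was placed in a region when at least 50% of its span was covered in all 6 tables of a mark. By this measure 100 of 218 placed genes (45.9%) lay in H3K27me3 regions, against 38.8% of the 10541 other genes silent in WT and 21.8% of 32909 nuclear genes. H2A.Z regions held 164 of 218 (75.2%), against 48.8% of the other genes silent in WT and 35.6% of nuclear genes. Among other genes silent in WT that had a read in some library, the shares were 41.8% for H3K27me3 and 56.1% for H2A.Z. The H2A.Z share was 84.3% for the 108 placed genes on in pie1-5 alone, 71.1% for the 38 on in clf-28 alone and 63.4% for the 41 on in pkl-1 alone. The H3K27me3 share was 46.3% in the first of these groups, 39.0% in the last, and 19 of 38 genes in the clf-28 group. Both marks covered 38.5% of the 218 genes, against 29.1% of the other genes silent in WT, and neither covered 17.4%, against 41.4%. These shares are descriptions, and gene span, which differed between the groups, was not matched.

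**Figure D4:**
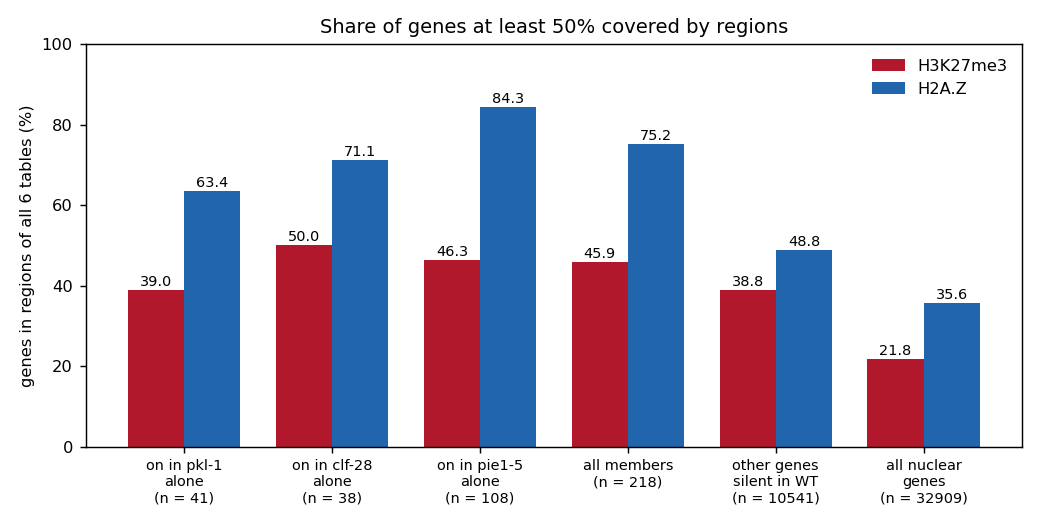
Share of genes (%) of which at least 50% was covered by H3K27me3 regions (red) or H2A.Z regions (blue) in all 6 tables of a mark. For H2A.Z the 3 groups of switched-on genes lie at 63.4% to 84.3%, above the 48.8% of the other genes silent in WT.

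In clf-28, the median ratio of H3K27me3 to WT was lower over the genes that were on there than over all regions, in both libraries. Of 29 such regions 28 had a lower RPM (reads scaled to the library total) than WT in both clf-28 libraries, and over all 5441 regions 4086 did. The median log2 ratio to WT was -0.68 in clf-28 1 and -2.30 in clf-28 2 over these 29 regions, -0.32 and -1.65 over 71 regions of switched-on genes that were not on in clf-28, and -0.40 and -1.82 over all regions. Both ratios lay below their medians over all regions for 16 of the 29 regions (55.2%), for 16 of the 71 (22.5%) and for 33.9% of all regions. No region passed the edgeR test in clf-28, in either direction (0% of 5441 regions). At an unadjusted p below 0.05 there were 3 of all regions and 1 of the 100 over the switched-on genes. The clf-28 libraries held 6.44 and 3.17 M reads and differed widely from each other, and the comparison of the 29 regions with the rest was not tested.

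Regions over single genes show the range. Here and below, a value over a gene is that of its whole region, which can extend beyond the gene. Over AT4G13577 (chr4:7885201-7900800, TAIR10) H3K27me3 measured 9.87 and 5.82 RPM per kb in clf-28, against 34.3 in WT. Over ATS (chr5:17072601-17086800) it measured 11.6 and 8.25 RPM per kb in clf-28, against 42.6 in WT. Over TCP12 (chr1:25840601-25864000) it measured 14.6 and 6.68 RPM per kb in clf-28, against 41.6 in WT, and over HB21 (chr2:8046801-8058000) 11.0 and 3.94, against 26.0 in WT. Over SHP1 (chr3:21738001-21741400) the values were 25.9 and 5.74 RPM per kb in clf-28 against 44.6 in WT, and over IND (chr4:40201-48800) 26.7 and 19.9 against 45.8. Over AOP3 (chr4:1339601-1347400) they were 37.2 and 8.44 in clf-28 against 47.4 in WT. The smallest differences were over EDA4, with 26.9 and 26.7 RPM per kb in clf-28 against 30.4 and 31.4 for WT in the 2 tables, and over NIMIN1, with 16.6 and 10.5 against 16.7. The 1 region that was not below WT in both libraries lay over GLN1;5, with 13.9 and 3.15 RPM per kb in clf-28 against 13.4 in WT. These log2 fold changes ranged from -2.13 over AT4G13577 to -0.21 over EDA4, with standard errors of 1.42 to 1.65.

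**Figure D5:**
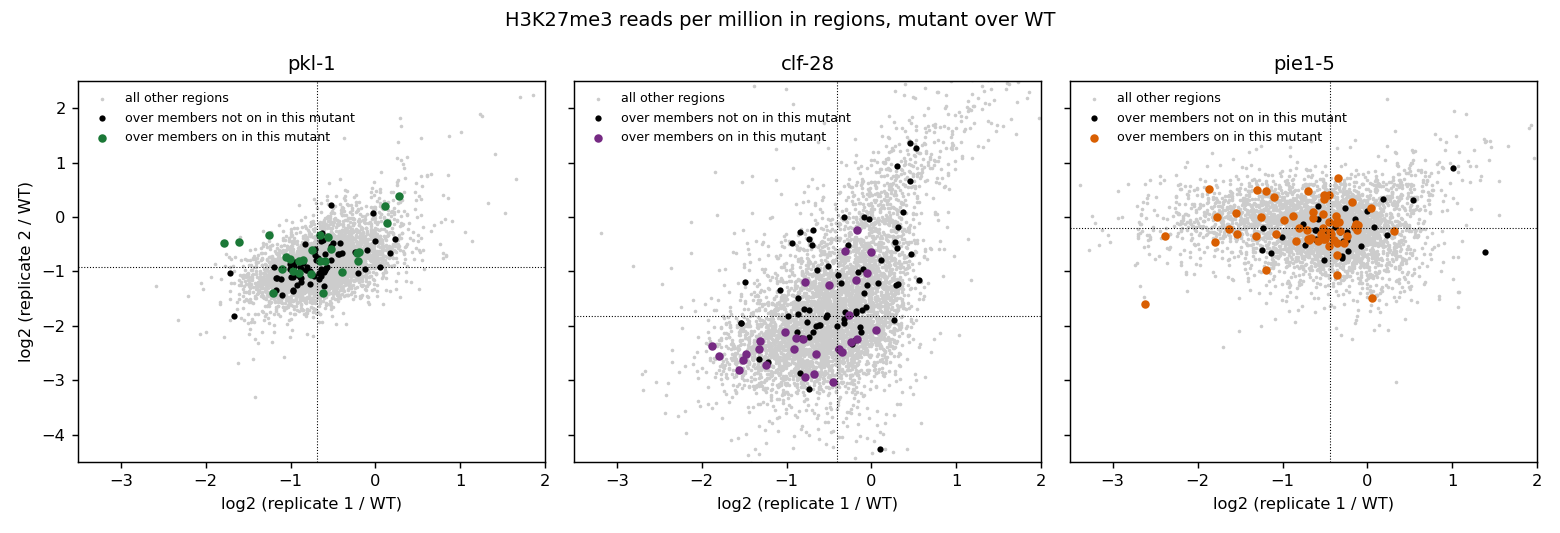
H3K27me3 RPM in a region relative to WT, as log2 ratios in replicate 1 (horizontal) and replicate 2 (vertical) of each mutant. Coloured points are regions over genes on in that mutant, black points those over the rest of the 219 genes, grey points all other regions, and dotted lines the medians over all regions. In clf-28 the coloured points crowd the lower left, with medians of -0.68 and -2.30. In total 41 regions lie beyond the axes.

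In pkl-1, H3K27me3 was lower over about as large a share of the regions of genes that were on there as of all regions. edgeR called 2713 of 5337 regions lower (50.8%) and 11 higher (0.206%), and 59 of 98 regions over the 219 genes were lower (60.2%). Of the 26 regions over genes on in pkl-1, 14 were lower (53.8%), and of the 72 over genes not on in pkl-1, 45 were lower (62.5%). The median log2 fold change was -0.73 over the 26 regions, -0.85 over the 72 and -0.79 over all regions. Both replicate ratios lay below their medians over all regions for 19.2% of the 26, 38.9% of the 72 and 34.1% of all regions. All these calls rest on the library totals as scale and on the spread between the 2 pkl-1 libraries, since WT is 1 library. With TMM factors, which set the bulk of regions equal, no region was lower and 1 over the 219 genes was higher.

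The 5 smallest adjusted p-values among the 219 genes belonged to TCP12, ATS, ACS7, SWEET13 and FRD3, of which SWEET13 alone was on in pkl-1. Over SWEET13 (chr5:20655601-20673200) H3K27me3 measured 17.9 and 17.7 RPM per kb in pkl-1, against 35.2 in WT (log2 fold change -0.98 ± 0.15 SE, edgeR adjusted p = 9.15e-09; 0.887 with TMM factors). Over TCP12 it measured 20.8 and 19.3 RPM per kb in pkl-1, against 41.6 in WT (-1.05 ± 0.13, edgeR adjusted p = 3.30e-12; 0.829 with TMM factors). ATS (-1.06 ± 0.16), ACS7 (-1.14 ± 0.17) and FRD3 (-1.08 ± 0.17) fell to a similar degree, with TMM-scaled adjusted p-values of 0.849, 0.739 and 0.769. Over RGF7 (chr3:418001-423400), which was on in pkl-1, H3K27me3 measured 18.6 and 16.3 RPM per kb in pkl-1, against 42.9 in WT (-1.30 ± 0.23, edgeR adjusted p = 4.22e-07). Over AGL38 (chr1:24254201-24259600) it measured 10.8 and 11.3 RPM per kb in pkl-1, against 19.6 in WT (-0.83 ± 0.31, edgeR adjusted p = 0.0191). The log2 fold change over AGL38 differed by -0.03 from the median over all regions, and that over RGF7 by -0.51. With TMM factors neither was called lower. Over AT3G01345, which had the most reads in pkl-1, H3K27me3 measured 6.07 and 15.0 RPM per kb in pkl-1, against 20.9 in WT, and was not called (edgeR adjusted p = 0.0509). Over the pair AT5G50610 and AT5G50710 H3K27me3 was not lower, with 20.9 and 22.1 RPM per kb over AT5G50610 in pkl-1 against 19.4 and 19.1 in the 2 tables for WT.

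In the fit without a replicate block, the 1 region of H2A.Z called in pkl-1, among 9861 tested, lay over a gene that was on in pkl-1 alone. Over AT4G10695 (chr4:6591201-6594600) H2A.Z measured 5.65 and 5.60 RPM per kb in pkl-1, against 23.7 and 25.3 in WT. The region was lower in pkl-1 (log2 fold change -2.12 ± 0.10 SE, edgeR adjusted p = 0.0153), the background being 0.0101% of regions lower and 0% higher. The value stayed between -2.17 and -2.07 without any 1 library, but the call was lost without pkl-1 1 (adjusted p = 0.145) or pkl-1 2 (0.132). Over the same gene H2A.Z measured 17.4 and 21.7 RPM per kb in clf-28 and 8.98 and 18.7 in pie1-5. AT4G10695 had 19, 42 and 17 reads in pkl-1, 3, 0 and 1 in clf-28, and none in pie1-5 or WT. H3K27me3 in a region that overlaps it (chr4:6594001-6595600) measured 4.94 and 10.9 RPM per kb in pkl-1, against 15.0 in WT, and was not called (-0.94 ± 0.49, edgeR adjusted p = 0.0884). Over AT5G50610 H2A.Z measured 17.9 and 19.1 RPM per kb in pkl-1, against 7.28 and 9.57 in WT, without passing the test (1.13 ± 0.19, edgeR adjusted p = 0.894). Over all 37 regions of genes on in pkl-1 the median was 0.06, against 0.00 over all regions. Both replicate ratios lay below their medians over all regions for 24.3% of the 37 and for 29.6% of all regions.

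In pie1-5, H2A.Z lay below WT over nearly every region, and its median over the genes that were on there was close to that over all regions. Both pie1-5 libraries lay below WT over 99 of 99 regions of genes on in pie1-5 and over 13594 of 14570 regions in all. The median log2 ratio over the 99 regions was -1.15 in pie1-5 1 and -0.34 in pie1-5 2, against -1.16 and -0.41 over all regions. edgeR called none lower (0%) and 3 higher (0.0206%), none of them over the 219 genes. Of the 99, 12 had an unadjusted p below 0.05, as had 1873 of all 14570 regions, a similar share. Both replicate ratios lay below their medians over all regions for 21.2% of the 99, for 28.8% of 52 regions of genes not on in pie1-5 and for 29.3% of all regions. The count of calls turned on pie1-5 2. Without it 13843 regions were called lower, 146 of them over the 219 genes, but pie1-5 is then 1 library and the spread comes from the 2 WT libraries alone. Over NIMIN1 (chr1:496401-498600) H2A.Z measured 7.74 and 14.0 RPM per kb in pie1-5, against 17.1 and 20.4 in WT (-0.79 ± 0.46, edgeR adjusted p = 0.276). H3K27me3 in pie1-5 was called higher over 1 region of 5180 (0.0193%), which lies over none of the 219 genes, and lower over none (0%). Its median over 60 regions of genes on in pie1-5 was -0.37, against -0.32 over all regions. Of the 60, 4 had an unadjusted p below 0.05, as had 4 of 35 regions of genes not on in pie1-5. Over all 5180 regions it was 98, a smaller share than of either group. These shares were not tested. Both replicate ratios lay below their medians for 35.0% of the 60, for 37.1% of 35 regions of genes not on in pie1-5 and for 22.4% of all regions. Over WOX5 (chr3:3523201-3528600) H3K27me3 measured 21.0 and 19.7 RPM per kb in pie1-5, against 28.7 in WT (-0.50 ± 0.44, edgeR adjusted p = 0.996).

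H2A.Z in clf-28 gave no call in either direction (0% of 14539 regions). The median over 35 regions of genes on in clf-28 was -0.29, against -0.27 over all regions. Of the 35, 9 had an unadjusted p below 0.05, against 8 of 116 regions of genes not on in clf-28. Over all 14539 regions it was 1694, a smaller share than of the 35. Both clf-28 libraries lay below WT over 26 of the 35 regions and over 9477 of all regions. Both ratios lay below their medians over all regions for 13 of the 35 (37.1%), for 16 of 116 regions of genes not on in clf-28 (13.8%) and for 25.2% of all regions. These shares were not tested.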

How the data were processed

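For the RNA-seq libraries the authors deposited raw read counts of each gene, and a second table with log2 fold changes and adjusted p-values of their own comparisons. Each ChIP replicate came as a region table that, per the file headers, holds counts and RPM of 1 mutant and 1 WT library, a ratio of the RPM values and p-values with an FDR. The deposited ratios and p-values of regions were not used. The submitters' processing notes name the build TAIR10 and the tools Trimmomatic, Bowtie2, SICER, edgeR, bedtools and deepTools, without settings. Input and anti-H3 libraries were not analysed here.

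The 219 genes and the marker lists were chosen with earlier results of these data known. Genes named are, per mutant, the 12 with the highest mean CPM and the 6 highest on there alone, those on in all 3 mutants, list members, genes next to the limits, and up to 5 with the smallest adjusted p per mark and mutant. Other genes named for a known role were picked after their values were seen.

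edgeR 4.0.16 (R 4.3.3) tested gene counts in 1 fit of 12 libraries, with TMM factors and the default filter. Alternatives used DESeq2 1.42.0, no filter, a fit of 2 groups and a replicate block. Same-numbered RNA-seq samples did not deviate together (correlations -0.0364 to 0.0829), so the block appears only as an alternative. Regions of both replicate tables were paired when they shared 50% or more of the shorter one, and the quasi-likelihood test of edgeR was run on the pairs. Library totals recovered from counts and RPM (3.17 to 19.3 M reads) set the scale, with region length as offset. Since RPM are relative to a library's whole read number, background reads lower the RPM of regions. WT counts for H3K27me3 were equal in 3947 of 3947 shared regions, so WT is 1 library and was entered once, not as the 2 planned. A RefSeq table of TAIR10.1 gave names and gene spans, and none of its coordinates is printed. It has no descriptions, so planned classes by description were reduced to gene type. Of 40 list genes, 33 lay in H3K27me3 regions, against 7 and 3 with genes shifted by 20 kb either way. A fold against 0 reads uses a floor of 3 reads over the group, and intervals are exact (Clopper-Pearson). Both cover counting error only, since reads carry no molecular identifiers. ChIP ratios per replicate add 0.5 reads. Fits were checked on simulated data with a fixed spread, which was not matched to the spread of these libraries.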

Additional observations from a re-analysis of the deposited data

How the results depend on the processing

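The number of switched-on genes depends on the limits. A WT limit of 0 reads left 101 genes (29 in pkl-1, 28 in clf-28, 56 in pie1-5), and a WT limit of 6 gave 102 in pkl-1 and 97 in clf-28. At least 3 reads per library gave 360 (113, 107 and 211 in the same order), and at least 10 gave 75 (22, 24 and 38). Counts scaled to the smallest library gave 120 (37 in pkl-1, 63 in pie1-5), of which 118 are among the 219. Under each of these limits pie1-5 had the most, while clf-28 had more than pkl-1 at 10 reads and with scaled counts (39). Without 1 library the total was 231 (pkl-1 2) to 410 (WT 2), with 79 to 189 in pkl-1, 86 to 135 in clf-28 and 210 to 257 in pie1-5. Fewer libraries make the rule easier to meet, and all 219 genes remained each time.

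Over all genes, no filter on low counts called 724 genes higher in pkl-1, 509 in clf-28 and 1321 in pie1-5, DESeq2 507 in pkl-1 and 322 in clf-28, and fits of 2 groups 646, 437 and 312, which puts pie1-5 last. Of the genes on in a mutant, DESeq2 called 36 in pkl-1, 28 in clf-28 and 55 in pie1-5, no filter 24 in clf-28, and the fit of 2 groups 16 in pie1-5. Without 1 library edgeR called 129 (WT 3) to 194 (WT 2) genes higher in pkl-1, 69 (WT 3) to 107 (WT 1) in clf-28 and 372 (WT 3) to 1034 (pie1-5 1) in pie1-5. Of the genes on in each mutant it called 6 (WT 3) to 10 (pkl-1 3), 7 (WT 2) to 10 (clf-28 1) and 14 (WT 2) to 30 (pie1-5 1).

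With TMM factors for H3K27me3, 0 regions were lower in pkl-1, 0 over the 219 genes, and 1 of those was higher; 23 regions were higher in clf-28 (1 over the 219 genes) and 1 lower, and 0 were higher in pie1-5. With the WT count of the first table, an alternative chosen after seeing the data, 2 regions were higher in pie1-5.
The numbers pair no RNA-seq samples. For H2A.Z the differences between replicate 1 and 2 in a mutant and in WT correlated over regions of equal length in both tables (r = 0.357 for pkl-1, 0.126 for clf-28 and 0.173 for pie1-5), but 2 pairs do not settle whether the numbers pair libraries. With the replicate block, H2A.Z regions numbered 73 higher and 56 lower in pkl-1 (1 and 2 over the 219 genes) and 4 higher and 6 lower in clf-28. Without 1 library, H2A.Z regions lower in pkl-1 were 0 (pkl-1 1 or pkl-1 2) to 1, those in clf-28 0 to 3 higher (WT 1) and 0 to 1 lower (WT 2), and those in pie1-5 0 to 7 higher and 0 to 13843 lower (0 to 146 over the 219 genes), the high values without pie1-5 2. An arm is then 1 library, assumed to vary like the other group. For H3K27me3 no paired analysis was possible because WT is 1 library, and leaving out a mutant library gives a value with no test.
A gene read at under 0.133 to 0.248 CPM, which is 5 reads, could not be seen as on at this depth.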
